A study of Mus musculus with 6 samples.

Results

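The transcripts of 10 purinergic genes were followed in bone marrow-derived macrophages (BMDMs) of wild-type mice and of mice with a myeloid deletion of *Scd2*, which encodes a fatty acid desaturase. The genes were chosen by name from the 40481 genes of the count table: the ATP-gated channels *P2rx1*, *P2rx4* and *P2rx7*, the nucleotide receptors *P2ry1*, *P2ry2*, *P2ry6*, *P2ry12*, *P2ry13* and *P2ry14*, and *Entpd1*, an enzyme that degrades extracellular ATP. The rule uses gene names and no measured value, but the genes were picked with earlier results of these data known. All 10 were in the table and 9 had enough counts to be tested. *P2rx1* had not.

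Cells that are stressed or dying release ATP and other nucleotides, and macrophages sense them through P2 receptors. P2X receptors are cation channels opened by ATP, and P2X7 in macrophages is known for the potassium efflux that activates the NLRP3 inflammasome. P2Y receptors are coupled to G proteins: P2Y1, P2Y2 and P2Y6 act mainly through Gq and calcium, and P2Y12, P2Y13 and P2Y14 through Gi. CD39, the product of *Entpd1*, converts ATP and ADP to AMP at the cell surface, which ends P2 signaling and supplies the substrate for adenosine.

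The study compared unstimulated BMDMs of 3 wild-type samples with those of 3 *Scd2*-m/-m samples, with 1 poly(A)-selected RNA library each. *Scd2*-m/-m mice carry floxed *Scd2* alleles and the lysozyme M-Cre transgene, which deletes *Scd2* in the myelomonocytic lineage, so cells of other lineages keep the gene. The sources used here do not say whether the wild-type mice carried floxed alleles or Cre. Marrow from tibias and femurs of both genotypes was differentiated in medium conditioned by CMG cells. Mice of both sexes were used, aged 2 to 5 months, and no sex or age is given for a library. The labels do not say that each library came from a separate mouse, so the p-values below measure the spread between these samples, which may be technical.

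Each library held between 46285176 and 57629638 counts. Levels are given as CPM, the counts of a gene scaled to a common library size, with TMM factors. *Scd2* itself was at 66.9, 77.8 and 62.7 CPM in the wild-type libraries and at 59.5, 38.0 and 39.8 CPM in the *Scd2*-m/-m libraries. These values did not overlap, but the difference did not pass the test (log2 fold change -0.59 ± 0.19 SE, FDR = 0.10), and the count covers every exon of the gene, including any outside the deleted part. By qPCR, the paper found a much larger reduction of *Scd2* transcript in *Scd2*-m/-m macrophages. Macrophage markers were abundant in all 6 libraries, at a summed 36500 to 38060 CPM in wild-type libraries against 21010 to 21830 CPM in those of *Scd2*-m/-m mice, and 4 of the 8 were lower and 1 higher in the latter. Most of that gap lay in *Lyz2*, whose mean was 22751 CPM in wild-type cells and 9030 CPM in *Scd2*-m/-m cells. *Lyz2* is the lysozyme M gene after which the Cre transgene is named, and the part of the transgene in its level was not tested. Of 5 monocyte markers 4 were higher in *Scd2*-m/-m cells (summed 160 to 206 CPM against 97.7 to 169), as were 5 of 5 cell division genes (103 to 107 CPM against 37.0 to 46.1) and 5 of 10 neutrophil markers (33.7 to 43.9 CPM against 22.3 to 26.0). At far lower levels, 2 of 4 B cell markers (5.25 to 6.95 CPM against 2.14 to 3.77) and 2 of 5 dendritic cell markers (1.87 to 2.67 CPM against 1.03 to 1.63) were higher as well. In these counts of markers, higher and lower mean an FDR below 0.05. Of all tested genes, 9.65% were higher and 7.84% lower by that threshold. Only 8 of the 10 neutrophil markers and 3 of the 4 B cell markers had enough counts to be tested. The part of these marker groups in the differences below was not tested, and in bulk RNA fewer cells of a type and less RNA per cell cannot be told apart.

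Purinergic genes differed between the genotypes in both directions. The Gi-coupled UDP-glucose receptor *P2ry14* and the ADP receptor *P2ry1* rose, while the ATP channel *P2rx4* and the ATP and UTP receptor *P2ry2* fell. Thus 4 of the 9 tested genes passed an FDR below 0.05 in edgeR's quasi-likelihood test, beside 17.5% of the 14778 genes tested. Since the genes were picked with such results known, this share is no independent evidence about them. The 2 that rose stand beside 9.65% of all tested genes called higher, and the 2 that fell beside 7.84% called lower. None of the 9 passed with an absolute log2 fold change above 2, the study's second threshold, which 0.663% of all tested genes did. In 5 of the 9 genes the libraries of the genotypes did not overlap, against 34.9% of all tested genes. The median absolute log2 fold change was 0.30 over the 9 genes and 0.16 over all genes tested, and the median signed change was -0.11 and 0.00387. The count of calls fell when some single libraries were left out, which also leaves fewer samples to test. It was 1 without *Scd2*-m/-m replicate 2 and 2 without *Scd2*-m/-m replicate 3. Without *Scd2*-m/-m replicate 2, *P2rx4*, *P2ry2* and *P2ry14* lost the call at log2 fold changes of -0.29, -0.35 and 1.03. With all 6 libraries these were -0.30, -0.31 and 1.03. Without *Scd2*-m/-m replicate 3, *P2ry2* and *P2ry14* lost it at -0.26 and 0.90.

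**Figure D1:**
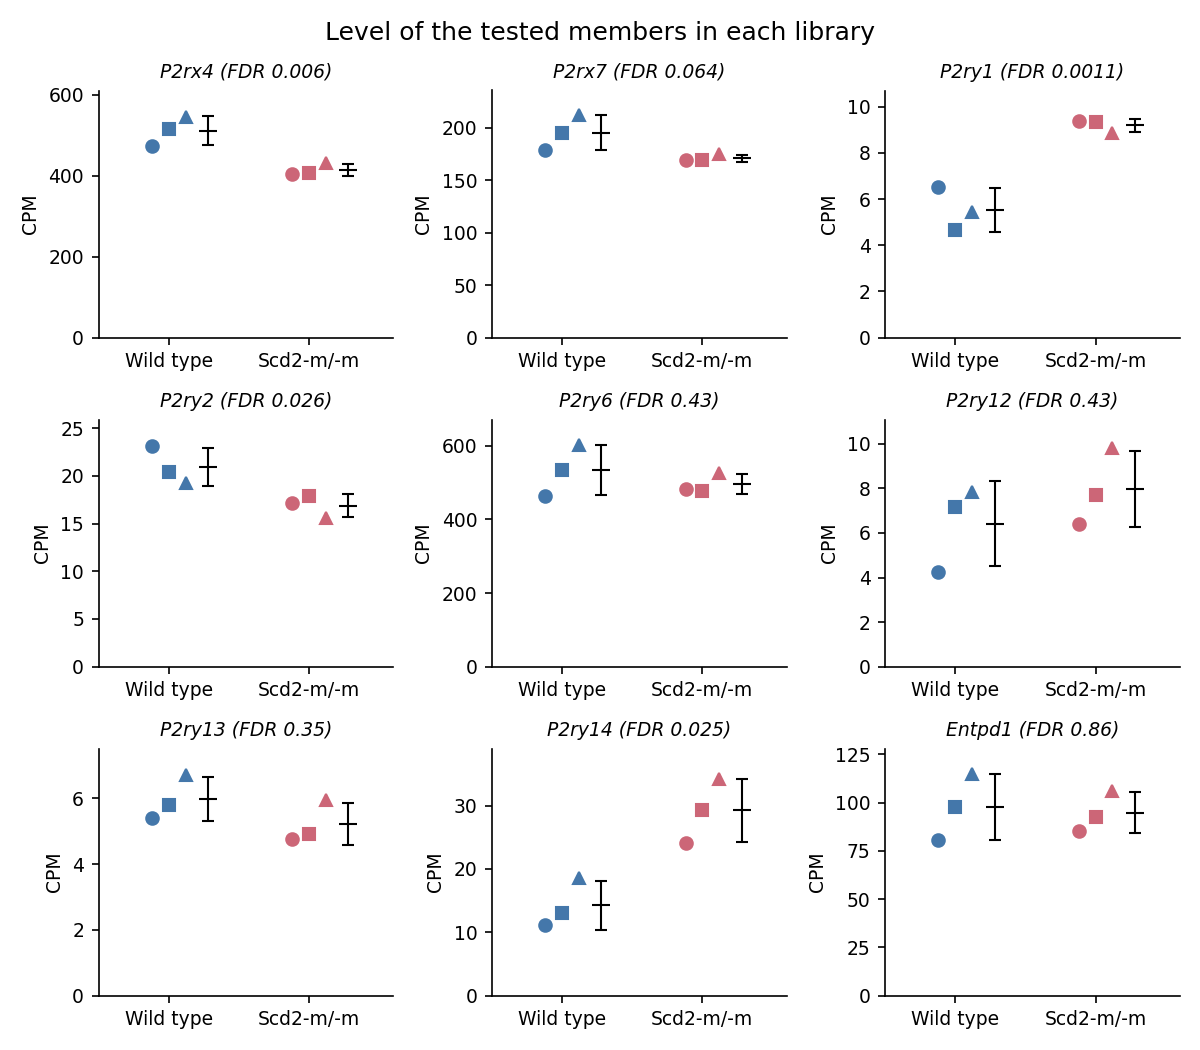
Level (CPM, linear axis from 0) of each tested gene in the 3 wild-type (blue) and 3 Scd2-m/-m (red) libraries; circle, square and triangle are replicates 1, 2 and 3, and the bar beside them is the mean ± SD. P2ry1 and P2ry14 sit higher and P2rx4 and P2ry2 lower in every Scd2-m/-m library, while P2ry6, P2ry12, P2ry13 and Entpd1 overlap.

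**Figure D2:**
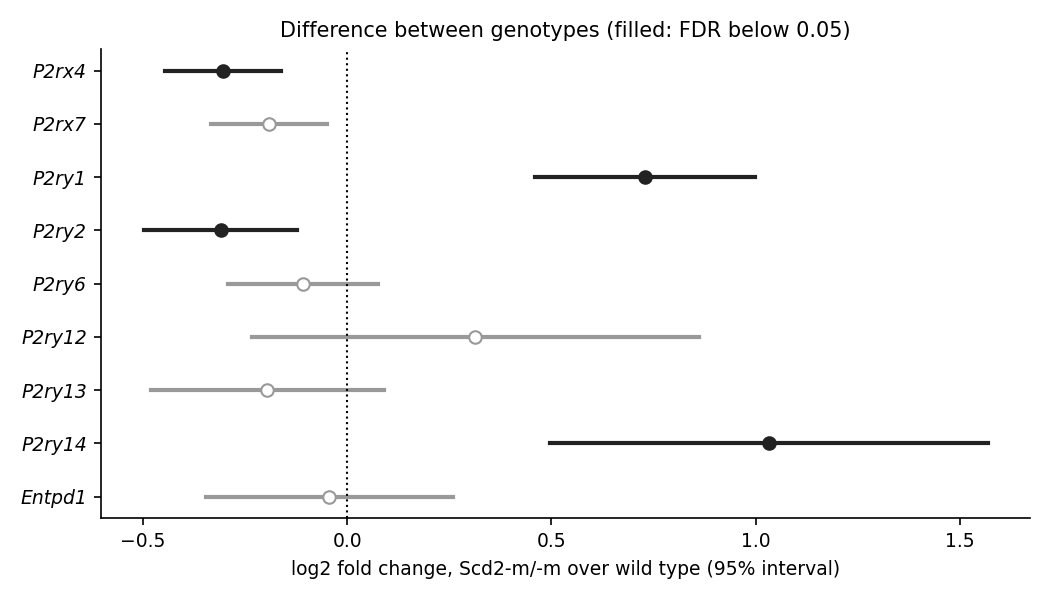
Log2 fold change of each tested gene between genotypes with its 95% interval; filled points have an FDR below 0.05. The intervals of P2ry1 (0.46 to 1.00) and P2ry14 (0.50 to 1.57) lie above 0, and those of P2rx4 (-0.45 to -0.16) and P2ry2 (-0.50 to -0.12) below it.

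*P2ry1* and *P2ry14* both lie on chromosome 3. *P2ry1* is at chr3:61002795-61008982 on the plus strand of GRCm38, and *P2ry14* at chr3:59113855-59153618 on the minus strand, 1.85 Mb away. The RefSeq promoter windows of these genes and of both that fell are shown so that genes moving the same way can be compared by eye. Each runs 5′ to 3′ from 250 bases before to 50 bases after an annotated start (GRCm38.p6), and for *P2ry14* and *P2ry2*, which have 4 and 2 windows, the one farthest upstream is printed. Capitals mark matches on either strand to GAGGAA (the core of PU.1 and other ETS sites), TGANTCA (AP-1), TTGCNNAA (C/EBP) or TATAAA. The windows are at chr3:61002535-61002834 (plus, *P2ry1*), chr3:59153443-59153742 (minus, *P2ry14*), chr5:122707294-122707593 (plus, *P2rx4*) and chr7:101012004-101012303 (minus, *P2ry2*).
P2ry1: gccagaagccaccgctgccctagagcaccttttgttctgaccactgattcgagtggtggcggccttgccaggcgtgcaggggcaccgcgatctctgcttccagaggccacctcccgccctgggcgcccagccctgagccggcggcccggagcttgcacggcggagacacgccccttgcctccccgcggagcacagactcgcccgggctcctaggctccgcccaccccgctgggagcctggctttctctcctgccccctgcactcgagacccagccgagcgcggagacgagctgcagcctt
P2ry14: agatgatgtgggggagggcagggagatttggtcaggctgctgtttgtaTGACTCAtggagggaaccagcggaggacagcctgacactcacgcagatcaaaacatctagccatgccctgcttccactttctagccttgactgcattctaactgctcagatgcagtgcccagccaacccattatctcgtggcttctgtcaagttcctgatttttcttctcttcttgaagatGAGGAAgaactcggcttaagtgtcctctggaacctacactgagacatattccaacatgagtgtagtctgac
P2rx4: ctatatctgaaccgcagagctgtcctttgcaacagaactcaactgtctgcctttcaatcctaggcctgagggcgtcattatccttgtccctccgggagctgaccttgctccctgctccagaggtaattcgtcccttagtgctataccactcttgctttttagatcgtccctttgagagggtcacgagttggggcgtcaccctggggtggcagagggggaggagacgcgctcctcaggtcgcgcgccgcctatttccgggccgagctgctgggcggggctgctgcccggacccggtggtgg
P2ry2: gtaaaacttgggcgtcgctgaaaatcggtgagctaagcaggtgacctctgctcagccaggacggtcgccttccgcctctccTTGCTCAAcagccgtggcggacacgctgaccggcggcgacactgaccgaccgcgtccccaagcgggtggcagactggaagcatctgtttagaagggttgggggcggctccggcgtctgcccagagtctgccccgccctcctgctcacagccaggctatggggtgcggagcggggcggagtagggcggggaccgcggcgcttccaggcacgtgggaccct

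The printed promoter windows of the 2 genes that rose differed. The *P2ry1* window was 70.7% G or C with 25 CpG dinucleotides and held none of the 4 motifs. The *P2ry14* window was 49.3% G or C with 4 CpG, near the medians over the 32851 promoters of the table (52.7% and 7). It held 1 GAGGAA match beginning at position -21 from the start and 1 TGANTCA match beginning at -202. Of the genes that fell, *P2rx4* (60.3% G or C, 18 CpG) held none of the motifs and *P2ry2* (67.3%, 28 CpG) held 1 TTGCNNAA match beginning at -169. No matches overlapped in these windows. Over all promoters, 28.3% held GAGGAA, 7.81% TGANTCA, 10.8% TTGCNNAA and 13.6% TATAAA. Of the 10 genes, 9 had at least 1 window in the table, and *P2ry6* had none. Counted from upstream, *P2ry14* window 2 held 1 GAGGAA and 1 TGANTCA match, and window 3 held 1 GAGGAA match. Window 4 held 1 GAGGAA, 2 TTGCNNAA and 1 TATAAA match. The counts do not show which start was used.

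*P2ry1*, a Gq-coupled receptor for ADP, was at 6.53, 4.64 and 5.45 CPM in the wild-type libraries and at 9.39, 9.33 and 8.86 CPM in the *Scd2*-m/-m libraries. Every *Scd2*-m/-m library was above every wild-type one, and the *Scd2*-m/-m libraries were close together (SD 0.290 CPM, against 0.947 CPM in wild type). The increase was 1.66-fold (log2 fold change 0.73 ± 0.13 SE, FDR = 0.00115), and it passed the test under all 14 alternative settings. An annotated antisense transcript, *Gm37035*, shares 992 exonic bases (23.1%) with *P2ry1* and has no row in the count table. The sources used here do not say whether counting used strand, so reads of the antisense transcript cannot be told apart from those of *P2ry1*. The tested genes whose levels followed *P2ry1* most closely over the 6 libraries were *Copa*, *Tmem242* and *Klf4*, each with a Pearson r of 0.996 on log2(CPM + 0.5). Pearson r takes no account of the size of a change. Mean CPM in wild-type and *Scd2*-m/-m cells was 348.4 and 363.5 for *Copa*, 23.9 and 28.8 for *Tmem242*, and 16.7 and 22.7 for *Klf4*. The r values are descriptive and share the genotype difference among the libraries.

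*P2ry14*, the Gi-coupled receptor for UDP-glucose and related UDP-sugars, showed the largest fold change of the 9. It was at 11.2, 13.1 and 18.6 CPM in the wild-type libraries and at 24.2, 29.4 and 34.2 CPM in the *Scd2*-m/-m libraries. The lowest *Scd2*-m/-m library stood above the highest wild-type one, and both genotypes spread widely (coefficient of variation 27.0% and 17.2%). The increase was 2.05-fold (log2 fold change 1.03 ± 0.22 SE, FDR = 0.0249). The call was lost without wild-type replicate 2 (FDR = 0.0864), *Scd2*-m/-m replicate 2 (FDR = 0.0635) or *Scd2*-m/-m replicate 3 (FDR = 0.0796), with a log2 fold change between 0.88 and 1.27 over all 14 settings.

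*P2ry12* and *P2ry13*, both Gi-coupled receptors for ADP, lie near *P2ry14*. The 3 genes span 149 kb of chromosome 3 (*P2ry13* at chr3:59207892-59210882, *P2ry12* at chr3:59216272-59262871), all on the minus strand. *P2ry12*, best known from platelets and microglia, was at 4.25, 7.18 and 7.83 CPM in the wild-type libraries and at 6.40, 7.72 and 9.81 CPM in the *Scd2*-m/-m libraries. The groups overlapped, and the interval of the log2 fold change ran from -0.23 to 0.86 (FDR = 0.428). *P2ry13* was at 5.42, 5.79 and 6.73 CPM in wild type, against 4.77, 4.93 and 5.95 CPM in *Scd2*-m/-m cells. It overlapped too, with an interval from -0.48 to 0.09 (FDR = 0.353). The microglial marker *Sall1* had no counts in any library, and the summed platelet markers were at 55.2 to 65.2 CPM in wild-type libraries against 44.3 to 45.8 CPM in those of *Scd2*-m/-m mice. Most of that sum was *Pf4* (54.3 ± 4.81 and 40.8 ± 1.41 CPM, FDR = 0.00126). The platelet markers *Ppbp*, *Itga2b* and *Gp1ba* did not pass the test, and *Gp9* and *Gp6* had too few counts to be tested.

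All 3 of these receptor genes lie inside the larger gene *Med12l*, which is on the opposite strand. *Med12l* encodes a subunit of the Mediator kinase module. It was at 1.06 ± 0.475 CPM in wild-type cells against 1.65 ± 0.0705 CPM in *Scd2*-m/-m cells (mean ± SD, n = 3 each) and did not pass the test (FDR = 0.155). It shares 9 exonic bases with *P2ry12* and none with *P2ry13* or *P2ry14*.

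Per kb of exon, the order of these neighbours differed between the genotypes. The ratio of *P2ry14* to *P2ry13*, both in CPM per kb of exon, was 0.471, 0.517 and 0.632 in the wild-type libraries and 1.16, 1.36 and 1.31 in the *Scd2*-m/-m libraries. *P2ry14* was thus below *P2ry13* in all 3 wild-type libraries and above it in all 3 *Scd2*-m/-m libraries on this scale. That crossing rests on the exon length: in CPM *P2ry14* was above *P2ry13* in every library of both genotypes. Among the Gq-coupled receptors the ratio of *P2ry1* to *P2ry2* was 0.258, 0.208 and 0.259 in wild-type and 0.50, 0.477 and 0.520 in *Scd2*-m/-m libraries. These ratios do not depend on library scaling, were chosen after the values were seen and were not tested.

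**Figure D3:**
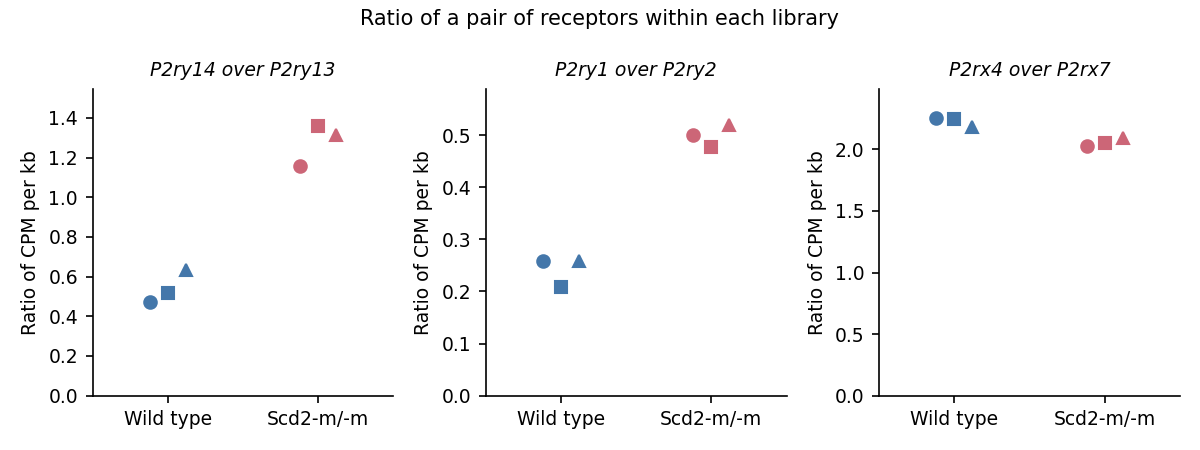
Ratio of a pair of receptors (CPM per kb of exon over CPM per kb of exon) within each wild-type (blue) and Scd2-m/-m (red) library; circle, square and triangle are replicates 1, 2 and 3. P2ry14 over P2ry13 goes from at most 0.632 to at least 1.16, P2ry1 over P2ry2 from at most 0.259 to at least 0.477, and P2rx4 over P2rx7 from at least 2.19 to at most 2.09.

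*P2rx4*, an ATP channel found in macrophages both at the surface and in lysosomes, was the most abundant P2X transcript. It was at 474, 516 and 546 CPM in the wild-type libraries and at 405, 408 and 431 CPM in the *Scd2*-m/-m libraries. No libraries overlapped. *P2rx4* fell to 81.0% of the wild-type mean (log2 fold change -0.30 ± 0.07 SE, FDR = 0.00598), and only leaving out *Scd2*-m/-m replicate 2, among the 14 settings, ended the call (FDR = 0.0502).

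*P2rx7*, the channel upstream of NLRP3, ends 16.1 kb before *P2rx4* begins on the plus strand of chromosome 5 (*P2rx7* at chr5:122643911-122691432, *P2rx4* at chr5:122707544-122729738). It was at 179, 195 and 212 CPM in the wild-type libraries and at 169, 169 and 175 CPM in the *Scd2*-m/-m libraries. The groups did not overlap, although wild-type replicate 1 was close to the highest *Scd2*-m/-m library. The difference did not pass the test (log2 fold change -0.19 ± 0.07 SE, interval -0.33 to -0.05, FDR = 0.0638). It passed in 5 of the 14 alternative settings, among them DESeq2 (FDR = 0.0442) and leaving out wild-type replicate 1 (FDR = 0.0141). The ratio of *P2rx4* to *P2rx7* per kb was 2.25, 2.24 and 2.19 in wild-type and 2.03, 2.05 and 2.09 in *Scd2*-m/-m libraries. *Camkk2*, a calcium-dependent kinase gene on their other strand nearby, was at 165 ± 7.40 and 162 ± 11.6 CPM (FDR = 0.813).

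*P2rx1*, a rapidly desensitizing ATP channel of platelets and smooth muscle, was close to absent. Its counts were 2, 6 and 0 among wild-type libraries and 13, 17 and 10 among *Scd2*-m/-m libraries. For the library at 0 a floor of 3 counts allows up to 0.0590 CPM. Every *Scd2*-m/-m library had more counts than any wild-type one. Summed over the libraries the ratio was 4.46, with a 95% exact counting interval of 2.06 to 11.0 that covers counting error only, and is too narrow even for that if 1 fragment gave more than 1 count. With every gene of at least 1 count tested, its FDR was 0.0635. It also passed the filter in 4 of the fits that left out a library, with an FDR of 0.0384 without wild-type replicate 2, 0.156 without wild-type replicate 1, 0.182 without wild-type replicate 3 and 0.0877 without *Scd2*-m/-m replicate 3. *P2rx1* is at chr11:72999103-73015200 on the plus strand. The gene before it on that strand, *Atp2a3*, which encodes a calcium pump of the endoplasmic reticulum, rose from 12.3 ± 3.33 to 34.2 ± 4.44 CPM (log2 fold change 1.47 ± 0.19 SE, FDR = 0.00269) and shares no exonic base with *P2rx1*.

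*P2ry6*, a Gq-coupled receptor for UDP linked to phagocytosis, was at 465, 535 and 603 CPM in the wild-type libraries and at 484, 477 and 527 CPM in the *Scd2*-m/-m libraries. The groups overlapped (log2 fold change -0.11, interval -0.29 to 0.08, FDR = 0.434). The log2 fold change was -0.013 without wild-type replicate 3 and -0.20 without wild-type replicate 1. Its neighbour *P2ry2*, which senses ATP and UTP as signals from dying cells, lies 21.9 kb away on the same strand of chromosome 7 (*P2ry6* at chr7:100937630-100974649, *P2ry2* at chr7:100996568-101012866). *P2ry2* was at 23.2, 20.4 and 19.2 CPM in wild type, against 17.2, 17.9 and 15.6 CPM in *Scd2*-m/-m cells. No libraries overlapped, and it fell to 80.7% of the wild-type mean (log2 fold change -0.31 ± 0.09 SE, FDR = 0.0255). That call was lost without wild-type replicate 1 (FDR = 0.106), wild-type replicate 2 (FDR = 0.0726), *Scd2*-m/-m replicate 2 (FDR = 0.0561) or *Scd2*-m/-m replicate 3 (FDR = 0.0901). Whether *P2ry2* and *P2ry6* differ from each other in their response was not tested.

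*Entpd1* was the member with the smallest difference. It was at 80.6, 97.6 and 115 CPM in the wild-type libraries and at 85.4, 92.5 and 106 CPM in the *Scd2*-m/-m libraries. The *Scd2*-m/-m values lay inside the wild-type range, and the interval of the log2 fold change, -0.35 to 0.26 (FDR = 0.864), spans changes in either direction. *Entpd1* is on chromosome 19 (chr19:40612366-40741602), 3.55 Mb from *Scd2*. Of the 105 tested genes within 5 Mb of *Scd2*, 27 (25.7%) were called, beside 17.5% of all tested genes. A pair of its near neighbours rose: *Aldh18a1*, an enzyme of proline synthesis, went from 5.55 ± 0.0690 to 9.71 ± 1.55 CPM (FDR = 0.000518) and *Tctn3*, a gene of the primary cilium, from 14.5 ± 1.51 to 18.5 ± 1.35 CPM (FDR = 0.0180). Within 50 kb of the 10 genes, 11 other genes were tested and 3 were called, all higher, the third being *Atp2a3*.

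Divided by exon length, the levels spread over a wide range. In wild type the order was *P2ry6* (185 ± 24.0 CPM per kb, SD, n = 3), *P2rx4* (72.8 ± 5.14), *P2rx7* (32.7 ± 2.80), *Entpd1* (17.5 ± 3.06) and *P2ry2* (5.33 ± 0.517), and the libraries of each of these 5 stood clear of the next. The other 5 followed at low levels: *P2ry12* (2.52 ± 0.749 CPM per kb), *P2ry13* (2.37 ± 0.267), *P2ry14* (1.29 ± 0.349), *P2ry1* (1.29 ± 0.221) and *P2rx1* (0.0216 ± 0.0254). *P2ry12* overlapped *P2ry13*, and *P2ry14* overlapped *P2ry1*. In *Scd2*-m/-m cells the first 5 kept their order. *P2ry12* (3.13 ± 0.675 CPM per kb), *P2ry14* (2.64 ± 0.454), *P2ry1* (2.14 ± 0.0675) and *P2ry13* (2.06 ± 0.254) then each overlapped the next in their ranges over libraries, although *P2ry12* was above *P2ry14* within each *Scd2*-m/-m library. The exon length is that of all annotated transcripts joined, which for *P2ry14* (11059 bases) lowers its value if short transcripts predominate.

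*P2ry6* alone made up 92.9% to 93.9% of the summed level per kb of the 6 P2Y genes in wild-type libraries and 92.0% to 92.7% in *Scd2*-m/-m libraries. *P2rx4* made up 68.6% to 69.2% of the P2X sum in wild type and 66.9% to 67.6% in *Scd2*-m/-m cells. The P2X sum itself was 97.4, 106 and 113 CPM per kb in wild-type and 86.1, 86.5 and 90.7 CPM per kb in *Scd2*-m/-m libraries, without overlap. The sum of the Gq-coupled receptors overlapped (192 ± 23.4 and 178 ± 8.87 CPM per kb), as did that of the Gi-coupled ones (6.18 ± 1.30 and 7.84 ± 1.37 CPM per kb). These sums were not tested.

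**Figure D4:**
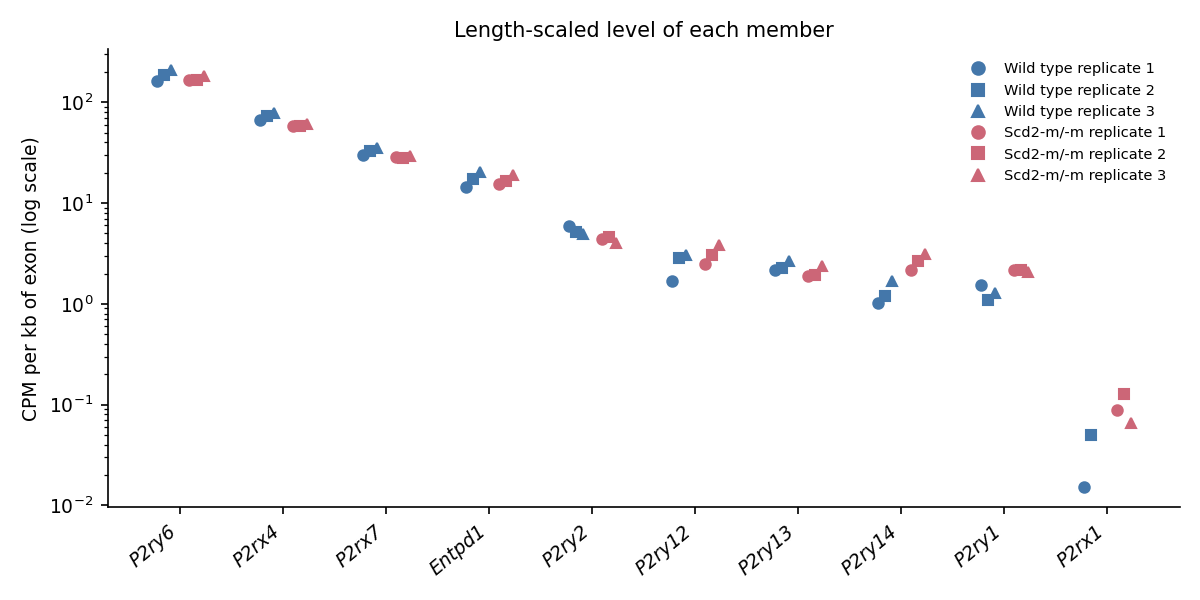
Level of each of the 10 genes per kb of exon (CPM per kb, log axis) in the 3 wild-type (blue) and 3 Scd2-m/-m (red) libraries, ordered by the wild-type mean; circle, square and triangle are replicates 1, 2 and 3. Wild-type means run from 185 for P2ry6 to 0.0216 for P2rx1; the 1 wild-type library with no P2rx1 counts is not drawn.

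The libraries of a genotype also differed among themselves in a shared way. Wild-type replicate 3 was the highest of the wild-type libraries in 7 of the 9 tested genes, against 34.9% of all tested genes, and *Scd2*-m/-m replicate 3 was the highest of its group in 7 of 9, against 37.2%. The coefficient of variation was lower in *Scd2*-m/-m than in wild-type libraries for 8 of the 9 genes, *P2ry13* being the other, and for 48.8% of all tested genes. It ran from 7.05% to 29.7% in wild type and from 1.92% to 21.6% in *Scd2*-m/-m cells, and *P2ry12* was the most variable in both.

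The wider purinergic pathway, from ATP release to adenosine uptake and the signals under the receptors, moved in both directions as well. Of 72 further gene symbols, 70 were in the table, 55 were tested and 23 passed (41.8%, beside the 17.5% of all tested genes), 11 of them higher and 12 lower in *Scd2*-m/-m cells. Of the symbols not matched, *Acp3* is the newer name of *Acpp*, which was in the table. The median log2 fold change of the 55 was 0.04. By list, the share of calls ran from 12.5% for ATP release to 66.7% for adenosine receptors, of which 3 were tested. ATP release and nucleotide degradation (16.7%) lay below the 17.5% of all tested genes, and the other lists above it. All lists were drawn up with earlier results of the same libraries known, so neither their joint share of calls nor that of any list is independent evidence. The count was 13 without wild-type replicate 2 and 14 without *Scd2*-m/-m replicate 2. Of the 23, 12 passed under every alternative setting in which they were tested: *Adk*, *Adora2b*, *Arrb2*, *Calhm2*, *Casp1*, *Dpp4*, *Il1b*, *Ninj1*, *Nlrp3*, *Plcb2*, *Pycard* and *Slc28a2*. The other 11 lost the call when at least 1 library was left out.

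**Figure D5:**
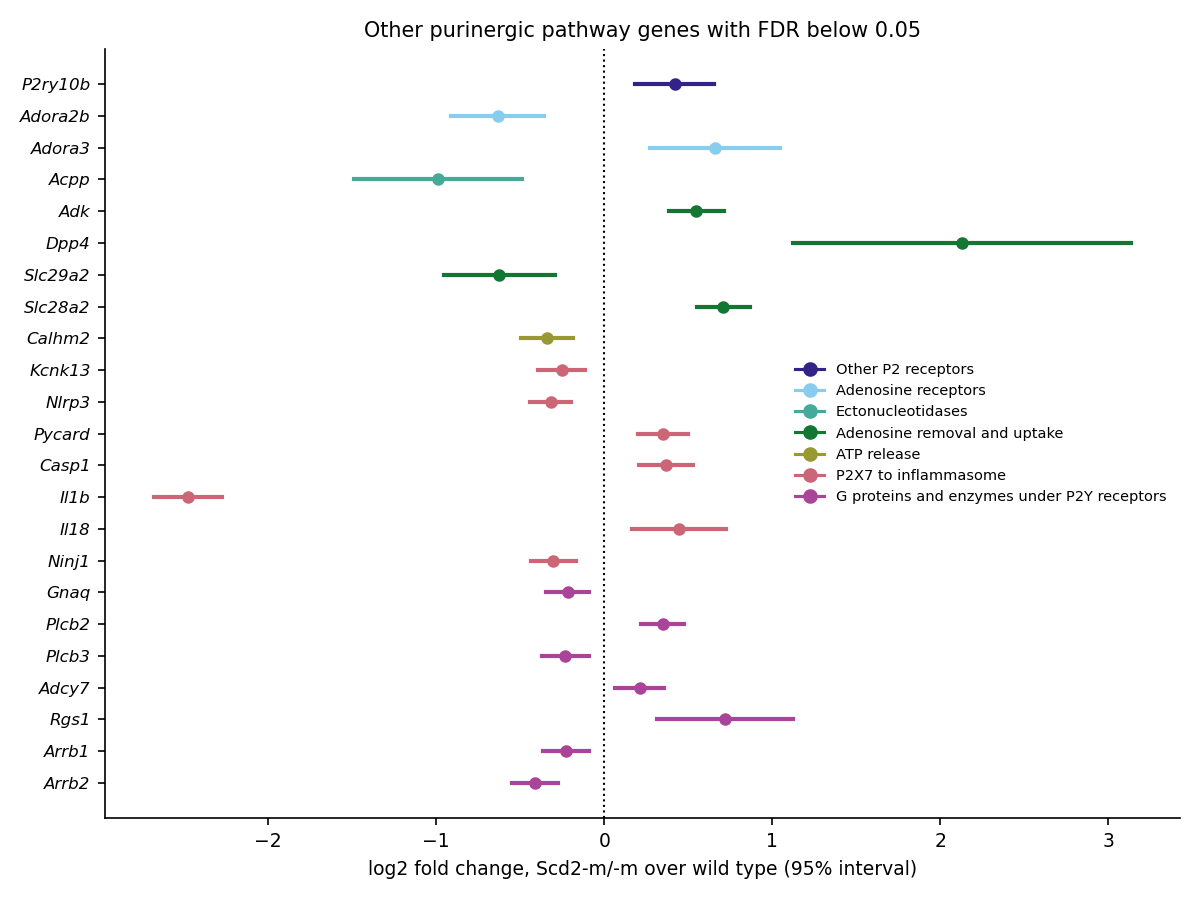
Log2 fold change between genotypes, with its 95% interval, of the 23 other pathway genes with an FDR below 0.05, coloured by list. Il1b (-2.48) and Dpp4 (2.13) lie farthest from 0, and 11 genes lie to the right of it and 12 to the left.

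Of 9 other P2 receptor genes 4 were tested and 1 passed (25.0%, beside the 17.5% of all tested genes). *P2ry10b*, whose human counterpart responds to lysophosphatidylserine rather than nucleotides, rose from 10.1 ± 1.46 to 13.5 ± 1.08 CPM (mean ± SD, n = 3 in each genotype, as below, FDR = 0.0175), and its close copy *P2ry10*, with which it may share reads, was below 1 CPM and untested. *Gpr34*, another lysophosphatidylserine receptor, was at 5.51 ± 1.22 and 5.44 ± 1.91 CPM (FDR = 0.979). *P2rx6* was at 0.239 ± 0.0505 and 0.530 ± 0.0860 CPM, with libraries that did not overlap and an FDR of 0.0524. *P2rx2* had no counts in any library.

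The adenosine receptors split. *Adora2b*, the low-affinity Gs-coupled receptor, fell from 5.11 ± 0.352 to 3.29 ± 0.118 CPM (log2 fold change -0.63 ± 0.13 SE, FDR = 0.00382). *Adora3*, a Gi-coupled receptor, rose from 1.58 ± 0.0934 to 2.50 ± 0.290 CPM (log2 fold change 0.66 ± 0.18 SE, FDR = 0.0214). *Adora2a* was at 1.36 ± 0.256 and 1.01 ± 0.301 CPM and did not pass (FDR = 0.313), and *Adora1* had too few counts to test.

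Of the enzymes that degrade nucleotides, 6 beside *Entpd1* were tested and 1 passed. *Acpp*, a phosphatase that can act on AMP, fell from 2.01 ± 0.543 to 1.01 ± 0.0503 CPM (FDR = 0.00953). *Nt5e*, which encodes the AMP-degrading ectoenzyme CD73, was at 0.125 ± 0.0741 and 0.130 ± 0.0528 CPM, too low to test. *Entpd5* (29.6 ± 2.23 and 32.1 ± 1.33 CPM), *Entpd7* (46.7 ± 1.03 and 47.7 ± 3.96 CPM, 0.56 Mb from *Scd2*) and *Enpp1* (18.1 ± 3.24 and 18.4 ± 1.88 CPM) did not pass, with FDRs of 0.294, 0.819 and 0.913.

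Among the genes that take up or remove adenosine, 4 of 8 tested passed. *Adk*, which phosphorylates adenosine to AMP, rose from 15.4 ± 1.06 to 22.5 ± 0.440 CPM (log2 fold change 0.55 ± 0.08 SE, FDR = 0.000242). The concentrative nucleoside transporter *Slc28a2* rose from 20.1 ± 1.07 to 32.8 ± 2.26 CPM (log2 fold change 0.71 ± 0.07 SE, FDR = 2.15e-05), while the equilibrative transporter *Slc29a2* fell from 4.33 ± 0.643 to 2.80 ± 0.221 CPM (FDR = 0.0126). *Dpp4*, a surface peptidase whose human counterpart binds adenosine deaminase, rose from 0.167 ± 0.119 to 0.727 ± 0.206 CPM (log2 fold change 2.13 ± 0.47 SE, FDR = 0.00618) from few counts. *Slc29a1* (65.0 ± 5.17 and 69.7 ± 1.34 CPM), *Slc29a3* (156 ± 14.8 and 162 ± 7.24 CPM), *Pnp2* (5.64 ± 1.03 and 5.87 ± 1.09 CPM) and *Ada* (5.12 ± 0.800 and 5.09 ± 0.0989 CPM) did not pass, with FDRs of 0.338, 0.625, 0.860 and 0.972.

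Of 8 tested genes for ATP release 1 passed. *Calhm2*, a channel gene of the CALHM family 2.80 Mb from *Scd2*, fell from 34.2 ± 2.58 to 27.1 ± 1.02 CPM (FDR = 0.00465). The pannexin channel *Panx1* was at 11.0 ± 0.490 and 10.5 ± 0.178 CPM (FDR = 0.619), and the vesicular nucleotide transporter *Slc17a9* at 9.64 ± 0.793 and 10.0 ± 1.57 CPM (FDR = 0.789). Of the volume-regulated anion channel subunits, *Lrrc8d* was at 55.4 ± 0.383 and 49.8 ± 3.24 CPM (FDR = 0.120), *Lrrc8c* at 36.2 ± 1.05 and 39.7 ± 1.85 CPM (FDR = 0.190) and *Lrrc8a* at 15.6 ± 2.12 and 16.6 ± 0.403 CPM (FDR = 0.609). Libraries of *Lrrc8d*, *Lrrc8c* and *Panx1* did not overlap between genotypes, without passing the test. Of all tested genes, 34.9% had libraries that did not overlap.

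The genes between P2X7 and interleukin release gave 7 calls of 11 (63.6%, beside the 17.5% of all tested genes). Since this list too was drawn up with earlier results known, its share is no independent evidence. *Il1b* fell most, from 38.6 ± 2.37 to 6.93 ± 0.891 CPM (log2 fold change -2.48 ± 0.09 SE, FDR = 2.79e-09). The sensor *Nlrp3* (114 ± 3.34 to 91.1 ± 1.98 CPM, FDR = 0.00142), the membrane rupture gene *Ninj1* (647 ± 25.9 to 525 ± 20.2 CPM, FDR = 0.00403) and the potassium channel *Kcnk13* (59.0 ± 3.92 to 49.5 ± 1.49 CPM, FDR = 0.0162) fell with it. The adaptor *Pycard* (45.5 ± 3.77 to 58.1 ± 1.47 CPM, FDR = 0.00292), *Casp1* (52.9 ± 0.866 to 68.3 ± 7.52 CPM, FDR = 0.00363) and *Il18* (4.45 ± 0.491 to 6.06 ± 0.507 CPM, FDR = 0.0289) rose. The pore gene *Gsdmd* was at 98.9 ± 5.66 and 103 ± 0.541 CPM (FDR = 0.563), the NLRP3-binding kinase *Nek7* at 105 ± 5.01 and 108 ± 11.9 CPM (FDR = 0.770) and the potassium channel *Kcnk6* at 102 ± 6.37 and 96.7 ± 3.23 CPM (FDR = 0.467).

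Under the P2Y receptors, 7 of 15 G protein and effector genes passed (46.7%, beside the 17.5% of all tested genes), 3 higher and 4 lower. This list too was drawn up with earlier results known. *Gnaq*, the Gq subunit used by P2Y1, P2Y2 and P2Y6, fell from 226 ± 8.98 to 194 ± 8.59 CPM (FDR = 0.0220). The phospholipase genes went apart, *Plcb2* rising from 67.7 ± 2.82 to 86.2 ± 2.22 CPM (FDR = 0.00105) and *Plcb3* falling from 90.1 ± 1.69 to 76.8 ± 6.31 CPM (FDR = 0.0277). The arrestins, which end receptor signaling, both fell, *Arrb2* from 667 ± 12.9 to 502 ± 30.7 CPM (FDR = 0.000551) and *Arrb1* from 448 ± 29.3 to 383 ± 6.16 CPM (FDR = 0.0246). *Rgs1*, a brake on Gi signaling, rose from 7.07 ± 1.65 to 11.6 ± 2.36 CPM (FDR = 0.0224), and the adenylyl cyclase *Adcy7* from 367 ± 31.7 to 425 ± 5.93 CPM (FDR = 0.0471). The Gi subunit genes *Gnai2* (1376 ± 66.1 and 1248 ± 51.2 CPM, FDR = 0.167) and *Gnai3* (86.4 ± 0.824 and 88.4 ± 6.45 CPM, FDR = 0.777) did not pass. Nor did *Gna12* (383 ± 41.1 and 330 ± 7.54 CPM, FDR = 0.0600), which passed in 5 of the 14 settings, *Gna13* (205 ± 6.48 and 223 ± 11.0 CPM, FDR = 0.179) or the regulator *Rgs2* (109.8 ± 2.31 and 115 ± 2.35 CPM, FDR = 0.493).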

How the data were processed

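Poly(A)-selected RNA of 3 wild-type and 3 *Scd2*-m/-m BMDM samples was sequenced, and groups were taken from the sample labels. Reads had been aligned by the authors to the Ensembl mouse genome using STAR, and the deposited values are raw counts of each gene. The sources used here do not state the counting tool, the use of strand or what 1 count stands for, and counts of 1 to 20 were even in 60.9% to 64.9% of cases. The authors' own comparison table (fold changes, p-values, log2 CPM) was not used. Of 40757 entries, 276 repeated a gene and were removed.

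Counts were tested with edgeR 4.0.16 (filterByExpr, TMM, robust glmQLFit, glmQLFTest, two-sided) on 14778 genes in R 4.3.3, with Benjamini-Hochberg FDR over all of them and a threshold of 0.05. The SE is the log2 fold change over the square root of F, and 95% intervals use its t quantile. The test was checked on simulated data. Coordinates and exon lengths came from GENCODE (GRCm38), promoters from RefSeq (GRCm38.p6). The 10 genes, the pathway lists, the markers and the motifs were chosen with earlier results of these data known. Named genes are all 10, the called pathway genes with up to 5 others of high level per list, overlapping or called neighbours, *Scd2*, and the 3 genes most like the member of smallest p. *Camkk2*, *Nt5e*, *P2rx2*, *Lyz2* and *Sall1*, and the ratios between receptors, were chosen after their values were seen. Alternatives were other scaling factors, DESeq2 1.42.0, limma-voom (limma 3.58.1) with and without quality weights, other count filters, a replicate block and leaving out each library.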

Additional observations from a re-analysis of the deposited data

How the results depend on the processing

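Over the 14 alternative settings, 111 of 126 comparisons of the 9 tested genes kept their direction and side of the threshold, 8 lost the call, 5 gained it (all *P2rx7*) and 2 changed sign. Both sign changes were of *Entpd1*, whose log2 fold change ranged from -0.165 to 0.0876 (0.0256 without *Scd2*-m/-m replicate 1) over the fits without 1 library. The number of called members was 4 or 5 under other scalings, filters and tools, and 1 to 4 when a library was left out, with fewer samples in each such fit. The number of called pathway genes was 22 to 26 and, when a library was left out, 13 to 21. Replicate numbers are shared between genotypes, but same-numbered libraries did not deviate together (correlations 0.0530, -0.0196 and 0.0398), and wild-type replicate 2 correlated best with *Scd2*-m/-m replicate 3, so the numbers are not taken to pair the samples. With the replicate block, 5 members and 24 pathway genes were called. With 3 libraries against 3, an exact permutation test of a single gene cannot go below p = 0.1, and at this depth *P2rx1* rests on at most 17 counts per library. No sex, batch or mouse identity is given for a library to fit, and the sex of a library was not read from the counts.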
